A study of Homo sapiens with 6 samples.

Results

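The fibroblast growth factor (FGF) ligands and FGF receptors described here are 10 genes: the ligands FGF1, FGF2, FGF5, FGF7, FGF9 and FGF18 and the receptors FGFR1, FGFR2, FGFR3 and FGFR4. They were chosen by name, as all probes whose platform gene symbol is one of these genes, which gave 10 of the 20046 genes with a probe of their own and 20 of the 47231 probes on the array, 12 for ligands and 8 for receptors. A probe counted as measured where its detection value, read as 1 minus the detection p, was above 0.99 on all 3 arrays of at least 1 line. By that rule 9 of the 20 probes were measured, and they belong to 5 of the 10 genes (FGF2, FGF5, FGF18, FGFR1 and FGFR3). Over the whole array 19384 probes and 11515 genes were measured.

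Total RNA of JJ012, a human chondrosarcoma line, was compared with total RNA of C28, a human line of chondrocytes labelled as the control, on Illumina expression arrays with 3 arrays of each line. Both lines were treated alike: 5000000 cells were seeded in a dish and kept for 24 h at 37 °C in 5% CO2 before lysis, and the labels name no added agent. Each group is 1 cell line, so a difference between the groups is a difference between these 2 lines. Nothing in the labels ties the 3 arrays of a line to separate cultures. A p-value here therefore sets the difference between the lines only against the scatter of these arrays, and that scatter may be technical. A change in signal cannot tell fewer cells that carry an RNA apart from less of it per cell.

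FGF ligands are secreted proteins that bind heparan sulfate and receptor tyrosine kinases of the FGFR family on the cell surface. A bound receptor pairs with another, phosphorylates adaptor proteins and switches on the RAS to ERK cascade, which in turn raises its own inhibitors, the Sprouty proteins and dual-specificity phosphatases. In the growth plate of cartilage, FGFR3 is the receptor best known for holding back chondrocyte division, FGF18 is one of its main ligands there, and FGFR1 marks hypertrophic chondrocytes and FGFR2 the surrounding mesenchyme.

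The promoter sequences below belong to the 3 genes called different between the lines, FGF5, FGF18 and FGFR3. A call needed an adjusted p under 0.05 and at least a 2-fold change, at the brightest measured probe of the gene. The sequences are shown so that their base composition can be compared. Each is the 250 bases before the annotated start of the gene from the RefSeq promoter table for GRCh38.p14, read 5′ to 3′ on the plus strand, with GC boxes (GGGCGG, or CCGCCC on the other strand) in capitals. FGF5 is at chr4:80266338-80266587, FGF18 at chr5:171419397-171419646 and FGFR3 at chr4:1793043-1793292.
FGF5: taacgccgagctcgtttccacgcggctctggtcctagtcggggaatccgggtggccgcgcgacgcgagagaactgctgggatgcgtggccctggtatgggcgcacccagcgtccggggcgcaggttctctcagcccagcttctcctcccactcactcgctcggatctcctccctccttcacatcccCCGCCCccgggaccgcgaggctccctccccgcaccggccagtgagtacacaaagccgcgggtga
FGF18: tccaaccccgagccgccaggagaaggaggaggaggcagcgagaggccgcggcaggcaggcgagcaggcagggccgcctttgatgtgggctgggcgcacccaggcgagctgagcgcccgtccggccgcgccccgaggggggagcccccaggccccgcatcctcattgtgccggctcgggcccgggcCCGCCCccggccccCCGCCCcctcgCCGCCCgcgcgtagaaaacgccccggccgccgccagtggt
FGFR3: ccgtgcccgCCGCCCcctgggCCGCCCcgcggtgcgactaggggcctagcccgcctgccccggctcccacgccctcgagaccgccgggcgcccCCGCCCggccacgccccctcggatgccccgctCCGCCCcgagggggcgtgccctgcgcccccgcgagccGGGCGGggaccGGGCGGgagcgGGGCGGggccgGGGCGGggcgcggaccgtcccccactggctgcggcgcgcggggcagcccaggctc

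The FGFR3 window had the highest GC content of the 3, at 86.8%, with 40 CpG dinucleotides and 8 GC boxes. The FGF18 window had a GC content of 78.8% with 31 CpG dinucleotides and 3 GC boxes, and the FGF5 window 68.8% with 27 CpG dinucleotides and 1 GC box. Over all 27305 windows of the same length, the median was 57.6% GC with 10 CpG dinucleotides, and 42.2% of windows held a GC box. No TATA box (TATAAA), AP-1 site (TGANTCA), ETS site (CCGGAAG) or E-box (CACGTG) was found on either strand of the 3 windows. These motifs were in 11.2%, 6.6%, 8.8% and 6.5% of all windows, in that order. A match or its absence describes these letters only.

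Arrays of the same line were close to each other, with correlations of normalized log2 signal over 15285 probes of 0.986 to 0.992 within JJ012, 0.994 to 0.996 within C28 and 0.891 to 0.907 between the lines. The number of detected probes ranged over 17826 to 18378 on the JJ012 arrays and 18922 to 19332 on the C28 arrays. Some JJ012 arrays carried signal at probes that are bright in C28. Over 68 probes that shone brightly in C28 but were not detected on JJ012 replicate 2, the median signal was 8.53% of the C28 mean on JJ012 replicate 1, 1.97% on replicate 3 and 0.513% on replicate 2. These 68 probes were picked as undetected on replicate 2, so its place as the lowest is given by that choice. Of 15 chondrocyte marker genes only SOX9 and MATN3 were measured, SOX9 in both lines and MATN3 in C28 alone, and the cartilage matrix genes COL2A1 and ACAN were not measured in either line. The summed linear signal of the 2 measured markers was 261 to 353 in JJ012 and 517 to 601 in C28. Markers of other cell types also differed. The 3 measured epithelial markers summed to 178 to 316 in JJ012 and 1210 to 1350 in C28, with CDH1 and KRT19 not detected. The 2 measured haematopoietic markers summed to 6520 to 8320 in JJ012 and 1400 to 1720 in C28, with CD68 higher and CD14 lower in JJ012 and with PTPRC and CD3E not detected. The 1 measured endothelial marker, PECAM1, was at 53.4 to 93.7 in JJ012 and 23.6 to 26.1 in C28, with CDH5 and KDR not detected. The 7 mesenchymal markers, all measured, summed to 25900 to 28000 in JJ012 and 25900 to 27200 in C28. Most of that sum was VIM, at a log2 signal of 14.65 in JJ012 and 14.405 in C28. Of the 7 markers, 6 were called lower in JJ012, beside 17.6% of all measured genes. Their part in the FGF results was not tested.

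FGF5 was a JJ012 signal. FGF5 is a secreted ligand best known in mammals for ending the growth phase of the hair follicle, and it was found as an oncogene in human tumour DNA. At the brighter probe, ILMN_1740871, the intensities as deposited were 429.1, 479.6 and 488.5 on the JJ012 arrays and 91.5, 86.1 and 91.3 on the C28 arrays. All 3 JJ012 arrays lay far above all 3 C28 arrays, and no C28 array detected the probe. Normalized log2 signal was 8.84 ± 0.13 in JJ012 and 4.85 ± 0.07 in C28 (SD, n = 3 each). Since C28 gave only a bound, the rise was at least 10.2-fold (limma, adjusted p = 8.21e-08 over all measured probes). The second FGF5 probe, ILMN_2399100, which is listed against another transcript record of the gene, had intensities of 169.4, 156.6 and 189.0 in JJ012 and 98.3, 81.6 and 78.6 in C28. Again each JJ012 array detected it while C28 did not, and the rise was at least 2.83-fold (limma, adjusted p = 1.71e-06). A bound is the mean of the JJ012 arrays set against the mean, per C28 array, of the higher of the lowest detected signal and the probe's own. All such bounds hold for this background correction only. Without it the fitted differences of the 2 FGF5 probes were 2.39 and 1.05 on the log2 scale, and with the authors' deposited values 2.58 and 1.19, smaller than the bounds.

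FGF18 gave 2 different answers at its 2 probes, which are listed against the same transcript record. FGF18 is a ligand made by the tissue around cartilage and by chondrocytes, with roles in bone and cartilage growth. At ILMN_1693483 the intensities were 373.2, 348.7 and 468.0 in JJ012 and 109.5, 79.5 and 87.9 in C28, where no array detected it. Normalized log2 signal was 8.56 ± 0.16 in JJ012 and 4.91 ± 0.28 in C28 (SD, n = 3 each), a rise of at least 8.44-fold (limma, adjusted p = 8.28e-07). The fitted log2 difference was 2.13 without background correction and 2.31 with the authors' deposited values, both under that bound. At ILMN_1797030, detected on all 6 arrays, the intensities were 118.0, 102.4 and 120.8 in JJ012 and 125.0, 128.6 and 128.5 in C28. Normalized log2 signal there was 5.89 ± 0.17 in JJ012 and 5.86 ± 0.22 in C28 (SD, n = 3 each), and the lines overlapped. The difference was 0.03 on the log2 scale (SE 0.14, 95% interval −0.29 to 0.36, limma adjusted p = 0.859), and its sign turned with the scaling, as it did without JJ012 replicate 1 (−0.06) and without C28 replicate 1 (−0.09). This dim probe was just inside the detection rule, with a detection value of 0.991 on JJ012 replicate 2. Gene counts use the brighter probe.

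FGF2 was detected in both lines and lower in JJ012, on the normalized scale by less than the 2-fold that a call required. FGF2, basic FGF, is a broadly acting mitogen that leaves cells without a signal peptide. At ILMN_2105919 the intensities were 357.9, 308.6 and 432.2 in JJ012 and 604.1, 704.1 and 801.8 in C28. Normalized log2 signal was 8.42 ± 0.18 in JJ012 and 9.16 ± 0.36 in C28 (SD, n = 3 each), and no JJ012 array reached the lowest C28 array. The difference was −0.74 (SE 0.19, limma adjusted p = 0.0072), which puts JJ012 at 59.7% of C28. On the background-corrected linear scale, before quantile normalization and the offset, the probe was at 46%, 38% and 56.3% of the C28 mean on the 3 JJ012 arrays, so 2 of them were beyond 2-fold there. The dimmer FGF2 probe, ILMN_1744693, gave nearly the same difference of −0.72 (SE 0.17, limma adjusted p = 0.00507). Its intensities were 103.7, 107.7 and 125.0 in JJ012 and 157.1, 173.3 and 178.1 in C28. JJ012 replicate 1 did not detect this probe, with a detection value of 0.9896, just below the threshold.

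The other ligands gave no measurable signal. FGF1, the acidic FGF that binds every FGF receptor, has 3 probes on the array, FGF7, a ligand of epithelial cells made by mesenchyme, has 1, and FGF9, a ligand with roles in skeletal growth and joint formation, has 2. None of these 6 probes was detected on any of the 6 arrays. The FGF1 probe ILMN_1753322 came closest, with a detection value of 0.979 on its highest array. The precision of these arrays allows no statement that these RNAs were absent.

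**Figure D1:**
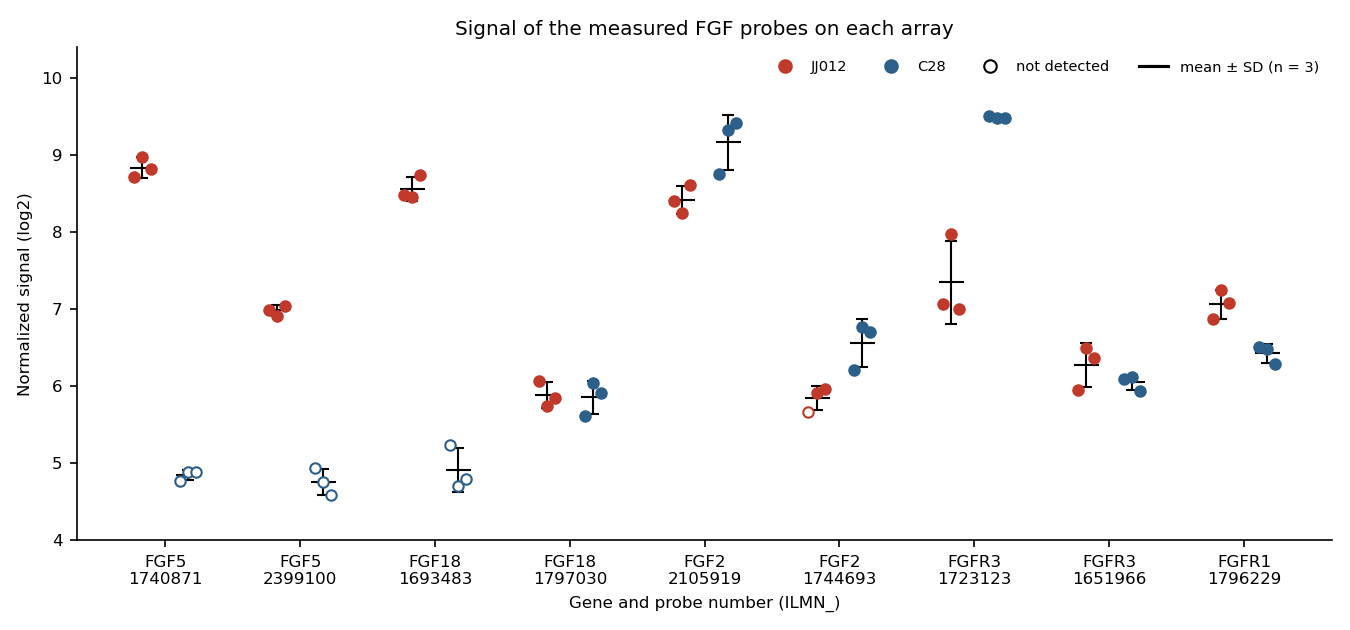
Normalized log2 signal of each of the 9 measured FGF probes (horizontal axis, gene and probe number) on each array, JJ012 in red and C28 in blue, with open circles for arrays that did not detect the probe and bars for the mean ± SD of 3 arrays. Both FGF5 probes and 1 of the 2 FGF18 probes were detected in JJ012 only, and FGFR3 probe ILMN_1723123 stands at 7.35 in JJ012 and 9.49 in C28. Heights of different probes are not comparable with each other.

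FGFR3 fell in JJ012 at its brighter probe. Its protein is the receptor whose activating mutations cause achondroplasia, a disorder of short limbs. At ILMN_1723123 the intensities were 176.1, 264.3 and 185.4 in JJ012 and 963.3, 773.4 and 834.5 in C28. All JJ012 arrays lay far below all C28 arrays, and JJ012 replicate 2 was the highest of its line. Normalized log2 signal was 7.35 ± 0.54 in JJ012 and 9.49 ± 0.02 in C28 (SD, n = 3 each). The difference was −2.14 (SE 0.24, 95% interval −2.69 to −1.59, limma adjusted p = 8.54e-05), or 22.7% of the C28 level. The difference was −2.001 without JJ012 replicate 1. On the background-corrected linear scale, before quantile normalization and the offset, the FGFR3 probe on JJ012 replicates 1, 2 and 3 stood at 13.4%, 24.7% and 13.4% of its C28 average.

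The second FGFR3 probe did not follow. ILMN_1651966, listed against another FGFR3 transcript record, had intensities of 113.7, 132.1 and 143.1 in JJ012 and 149.6, 132.3 and 130.0 in C28, and was detected on all 6 arrays. Normalized log2 signal was 6.27 ± 0.28 in JJ012 and 6.05 ± 0.10 in C28 (SD, n = 3 each), with overlap between the lines. The difference of 0.22 (SE 0.15, 95% interval −0.13 to 0.57) did not pass the test (limma, adjusted p = 0.218). With the mean of both probes taken for the gene, the FGFR3 difference was −0.96 (limma, adjusted p = 0.00141), under 2-fold, and the call was lost.

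FGFR1, the receptor with the broadest expression in mesenchymal cells, was slightly higher in JJ012 at its measured probe, ILMN_1796229. The intensities as deposited overlapped, at 161.3, 182.0 and 191.4 in JJ012 and 178.3, 152.5 and 149.2 in C28. After normalization the lines did not overlap, with log2 signals of 6.87, 7.24 and 7.07 in JJ012 and 6.51, 6.48 and 6.29 in C28. The difference was 0.63 (SE 0.13, 95% interval 0.34 to 0.93, limma adjusted p = 0.00221), under 2-fold and so not called. The second FGFR1 probe was not detected on any array. FGFR2, the receptor of limb and skull mesenchyme and of epithelia, has 1 probe, and FGFR4, a receptor best known in liver, has 3, and none was detected on any array. Over the 11 FGF probes that were not measured the intensities lay between 53.7 and 110.2, and the highest detection value was that of FGF1.

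**Figure D2:**
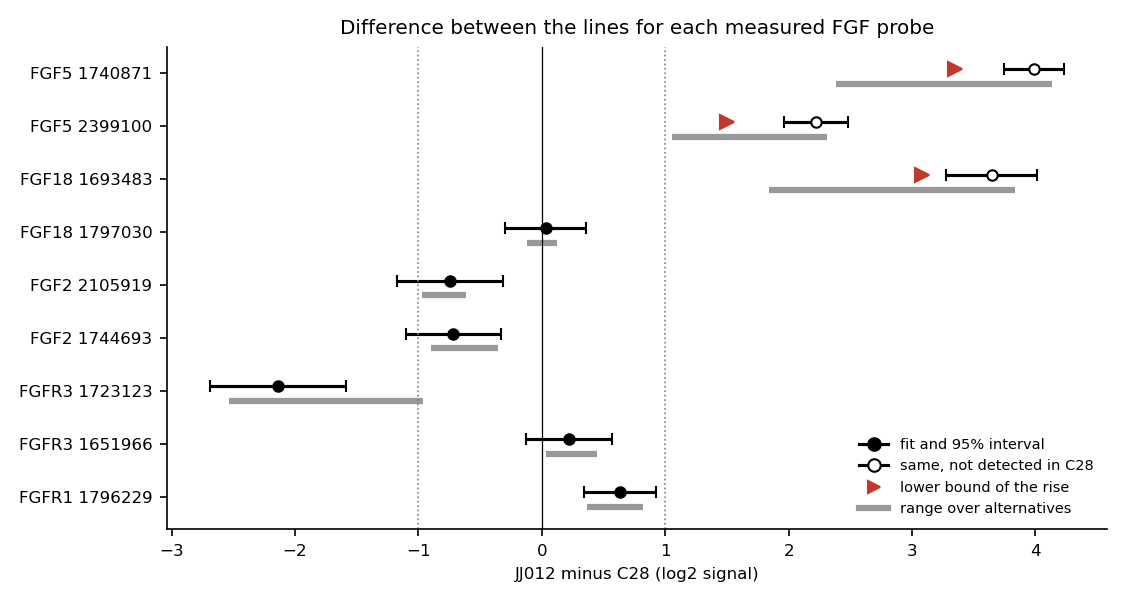
Difference in normalized log2 signal, JJ012 minus C28, for each measured FGF probe, with the fitted value and its 95% interval as a point and bar. Open points mark probes not detected in C28, red triangles the lower bound of their rise, grey bars the range over the alternative settings (the mean of a gene's probes included) and dotted lines a 2-fold change. FGF5 and FGF18 probe ILMN_1693483 lie to the right of the 2-fold line, FGFR3 probe ILMN_1723123 lies to the left at −2.14, and the other 5 probes lie between the lines.

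Of the 9 measured FGF probes, 3 were called higher in JJ012, 1 was called lower and 5 were not called, where a call needs an adjusted p under 0.05 and at least a 2-fold change. Over all measured probes 29.8% were called, 13.9% higher and 15.9% lower. By gene, each counted by its brightest measured probe, FGF5 and FGF18 were called higher, FGFR3 was called lower, and FGF2 and FGFR1 were not called. Over all measured genes 31.3% were called, 13.7% higher and 17.6% lower. The lines did not overlap at 7 of the 9 FGF probes nor, by brightest probe, in any of the 5 FGF genes, against 74.2% of all measured probes and 76.2% of all measured genes. The median difference over the 9 probes was 0.22, and that over all measured probes was −0.01. Counts this small were not tested against those shares.

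Most of the rest of the FGF family did not pass the detection rule. None of the 9 other paracrine ligands on the array (FGF3, FGF4, FGF6, FGF8, FGF10, FGF16, FGF17, FGF20 and FGF22) was measured. Neither were the hormone-like ligands FGF19, FGF21 and FGF23 or the Klotho co-receptor KLB. The other Klotho co-receptor, KL, was matched to no probe on the array and could not be assessed. Of the 4 intracellular FGF homologous factors, proteins that bind sodium channels and not FGF receptors, only FGF13 was measured. FGF13 log2 signal was 7.47, 7.62 and 7.43 on the JJ012 arrays and 5.83, 5.38 and 5.37 on the C28 arrays, and it rose by 1.98 (SE 0.14, limma adjusted p = 8.8e-06). Only 1 of the 3 C28 arrays detected FGF13.

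In the list of FGF binding and receptor-partner genes, 8 of 13 were measured. Not all of their products bind an FGF ligand or receptor, and CEP43 and FGFR1OP2 are in the list by name. Of the 8, 1 was called higher, 2 lower and 5 were not called, with a median of 0.12. That is 37.5% called, beside 31.3% of all measured genes. FLRT2, a transmembrane protein whose family binds FGF receptors and guides neurons, had log2 signals of 9.27, 8.88 and 9.18 in JJ012 and 5.04, 4.98 and 4.70 in C28. No C28 array detected FLRT2, and the rise was at least 12.3-fold (limma, adjusted p = 2.44e-07), though the fitted log2 difference was 2.60 without background correction and 2.80 with the authors' deposited values. NCAM1 and CDH2, adhesion molecules that can bind and activate FGFR1, were both lower in JJ012. NCAM1 was detected on no JJ012 array and fell at least 4.15-fold (limma, adjusted p = 8.83e-07), and CDH2 fell by 1.35 on the log2 scale (SE 0.14, limma adjusted p = 5.2e-05). FGFRL1, a receptor relative that lacks the kinase, was at 10.13 ± 0.18 in JJ012 and 9.16 ± 0.14 in C28 (log2, SD, n = 3 each). The difference of 0.98 was just under 2-fold (limma, adjusted p = 0.000204). At its dimmer probe, ILMN_2348367, FGFRL1 was called higher, by 1.02 (SE 0.13, limma adjusted p = 0.000155). The number of genes called higher in this list ran from 0 to 2 over the alternatives.

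Heparan sulfate, the sugar chain that holds FGF ligands at their receptors, is made and carried by products of a list in which 8 of 13 measured genes were called, or 61.5% beside 31.3% of all measured genes. GPC6, a membrane-anchored proteoglycan of the glypican family, was called higher and 7 genes were called lower, with a list median of −1.16 and a median of −0.04 over all measured genes. GPC4, another glypican, had log2 signals of 5.33, 4.42 and 4.60 in JJ012 and 8.66, 8.61 and 8.66 in C28, a fall of at least 7.74-fold (limma, adjusted p = 2.57e-06). Its fitted log2 difference was −4.14 without JJ012 replicate 1, −2.33 without background correction and −2.54 with the authors' deposited values. SULF2 and SULF1, extracellular enzymes that remove 6-O-sulfate groups from heparan sulfate, fell at least 5.35-fold and at least 1.37-fold, and HS6ST2, an enzyme that adds 6-O-sulfate, fell at least 1.62-fold. These 4 genes were detected on no JJ012 array. The bounds of SULF1 and HS6ST2 are below 2-fold, and their calls rest on fitted values of −1.16 and −1.86. Both calls were lost without background correction, and that of SULF1 also with normexp without negative controls and with the authors' deposited values. The number called lower was then 5, 6 and 6 in place of 7, and 3 when probes had to be detected on all 6 arrays.

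The syndecans, transmembrane proteoglycans, did not move together. SDC4 fell by 1.67 (SE 0.11, limma adjusted p = 6.44e-06) and SDC2 fell by 1.27 (SE 0.10, limma adjusted p = 1.33e-05), while SDC1 was at 9.33 ± 0.40 in JJ012 and 9.31 ± 0.19 in C28 (log2, SD, n = 3 each). EXT1, a subunit of the enzyme that builds the chain, fell by 1.51 (SE 0.10, limma adjusted p = 6.19e-06), and its partner EXT2 differed by −0.41, not called. GPC6 was higher in JJ012 by 1.47 (SE 0.10, limma adjusted p = 5.26e-06), with log2 signals of 8.29, 8.15 and 8.10 in JJ012 and 6.75, 6.66 and 6.70 in C28.

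The adaptors and effectors that carry the signal from an FGF receptor to ERK differed by less than 2-fold on the normalized scale. At their brightest probes none of the 13 measured genes was called by limma, beside 31.3% of all measured genes. Since none reached 2-fold, the count is 0 at any p. With median scaling 1 gene was called lower. The differences at the brightest probes ran from −0.83 for the adaptor CRKL to 0.44 for GRB2, and the median was −0.01. Dimmer probes gave 0.68 for GRB2 and −0.90 for PLCG1. PLCG1, the phospholipase that binds the activated receptor, differed by −0.74 (SE 0.14, limma adjusted p = 0.00141), and MAPK3, the kinase ERK1, by −0.62 (SE 0.13, limma adjusted p = 0.00271), both under 2-fold.

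Of 9 measured feedback inhibitors and ETS factors, genes that ERK signalling induces, 2 were called higher, 1 lower and 6 were not called, or 33.3% called beside 31.3% of all measured genes. DUSP5, a nuclear phosphatase of ERK, had log2 signals of 11.72, 11.30 and 11.66 in JJ012 and 9.41, 9.24 and 8.98 in C28, a rise of 2.35 (SE 0.15, limma adjusted p = 5.29e-06). SPRY2, a Sprouty inhibitor of receptor signalling, had log2 signals of 10.99, 10.38 and 10.86 in JJ012 and 9.14, 8.91 and 8.92 in C28, a rise of 1.75 (SE 0.17, limma adjusted p = 3.44e-05). DUSP6, a cytoplasmic phosphatase of ERK often used as a readout of FGF signalling, had log2 signals of 8.79, 6.49 and 7.10 in JJ012 and 10.96, 11.07 and 10.88 in C28. It fell by 3.51 (SE 0.50, limma adjusted p = 0.00035), with the JJ012 arrays far apart, and at a second DUSP6 probe, which no JJ012 array detected, it fell at least 2.57-fold. On the linear scale DUSP6 was at 17.3% of the C28 mean on JJ012 replicate 1, 2.72% on replicate 2 and 5.14% on replicate 3. The difference was −4.18 without replicate 1. DUSP6 also stayed called lower when the median share of C28 signal was subtracted from JJ012 replicates 1 and 3. The cause of that signal on the JJ012 arrays was not tested.

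ETV4 and ETV5, ETS transcription factors that FGF signalling raises in embryos, lay close to the 2-fold threshold. ETV4 differed by −0.96 (SE 0.10, limma adjusted p = 5.5e-05) and ETV5 by −0.95 (SE 0.13, limma adjusted p = 0.00029) at their brightest probes, and their dimmer probes gave −1.05 and −1.03. The number of genes called lower in this list ran from 1 to 4 over the alternatives, with 4 called without C28 replicate 3 and 3 without JJ012 replicate 2. SPRY4 and IL17RD, further inhibitors, differed by 0.67 and 0.71 and were not called.

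In the cartilage genes known to act with FGF18 and FGFR3, 3 of 9 on the array were measured. RUNX2, a transcription factor of hypertrophic chondrocytes and bone, had log2 signals of 6.57, 5.70 and 5.92 in JJ012 (detected on 2 of 3 arrays) and 7.56, 7.70 and 7.44 in C28. It fell by 1.502 (SE 0.21, limma adjusted p = 0.000314), or −1.75 without JJ012 replicate 1. The call was lost without background correction (−0.87), with normexp without negative controls (−0.995) and with the authors' deposited values (−0.95). SOX9, the master regulator of chondrocytes, differed by −0.53 (limma, adjusted p = 0.0113), and CDKN1A, a cell cycle inhibitor that FGFR3 raises in chondrocytes, by −0.70 (limma, adjusted p = 0.00405), both under 2-fold. Neither of the measured genes tied to the export of FGF1 and FGF2 was called at its brightest probe, API5 at −0.75 and S100A13 at −0.17. A dimmer S100A13 probe, ILMN_1814799, was called lower at −1.62 (SE 0.19, limma adjusted p = 0.00011). The other S100A13 probes, at −0.34 and −0.57, were not called. Over all these lists 16 of 49 measured genes were called, 5 higher and 11 lower, which is 32.7% and close to the 31.3% of all measured genes.

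**Figure D3:**
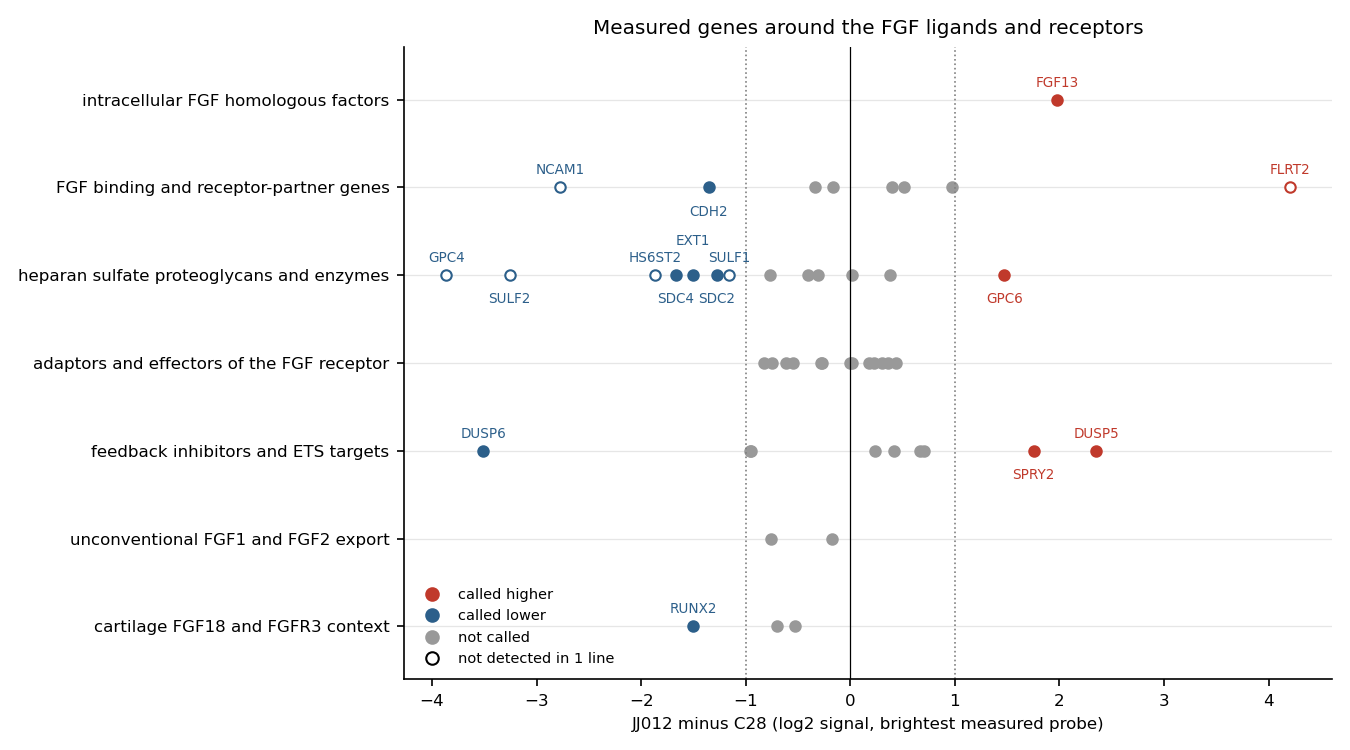
Difference in normalized log2 signal, JJ012 minus C28 (horizontal axis), of every measured gene in each list around the FGF ligands and receptors (rows), by its brightest measured probe. Red points were called higher, blue points lower and grey points not called, open points were not detected in 1 line, and dotted lines mark a 2-fold change. The adaptors and effectors all lie between the 2-fold lines, and 7 heparan sulfate genes lie left of zero as blue points, with GPC6 as the red point of that row.

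For each FGF probe detected on all 6 arrays, the genes with the most similar pattern were found by the root mean square difference of mean-centred log2 signal over the 6 arrays, among 12366 probes. No threshold for a close match was set, and the distances were not scaled to the spread of each probe. Nearest to FGFR3 probe ILMN_1723123 were GSTA4 at 0.10 and IRAK1BP1 at 0.22. The nearest to FGF2 probe ILMN_2105919 were MCM8 at 0.07 and PCNA at 0.09. CNRIP1 and FOXD2-AS1 were nearest to the FGFR1 probe, at 0.02 and 0.03. The nearest to FGF18 probe ILMN_1797030 were DENR and GABPA, at 0.03 and 0.05, and those to FGFR3 probe ILMN_1651966 were EME1 and MAGOH, at 0.04 each. With 6 arrays in 2 groups, such likeness rests largely on the difference between the lines.

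The genes next to each FGF gene were set beside it, as the 3 nearest measured genes on either side in RefSeq order, a rule and a choice of names made after the values had been seen. At FGF5 on chromosome 4, PRDM8, ANTXR2 and PAQR3, the 3 measured genes before it, were each called higher in JJ012, as were 13.7% of all measured genes. PRDM8, a chromatin regulator, was higher by 2.40 (SE 0.13, limma adjusted p = 2.25e-06), with log2 signals of 8.69, 9.01 and 8.94 in JJ012 and 6.505, 6.305 and 6.641 in C28. ANTXR2, an anthrax toxin receptor, was higher by 2.94 (limma, adjusted p = 7.43e-07), and PAQR3 by 1.59 (limma, adjusted p = 4.47e-06). On the other side, HNRNPD differed by −0.06 and HNRNPDL by −0.20, and ENOPH1 by 0.96, none of them called.

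Next to the other FGF genes, calls were scattered. On chromosome 5, C5orf58 rose at least 20.3-fold (limma, adjusted p = 4.13e-07) and TLX3, a homeobox gene that lies between it and FGF18, fell at least 1.56-fold, and the other 4 neighbours were not called. By FGFR3 on chromosome 4, LETM1 was higher by 1.03 (limma, adjusted p = 0.000525) and SCARNA22 fell by 1.55 (limma, adjusted p = 7.45e-05), and TACC3, the gene just before FGFR3, differed by 0.29 (limma, adjusted p = 0.0895). By FGFR1, LETM2 was higher by 3.33 (limma, adjusted p = 7.26e-07) and 5 neighbours were not called. By FGF2, FAT4 rose at least 2.31-fold (limma, adjusted p = 3.58e-05), and NUDT6, the gene that overlaps FGF2 on the opposite strand, differed by −0.29 (limma, adjusted p = 0.0191).

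**Figure D4:**
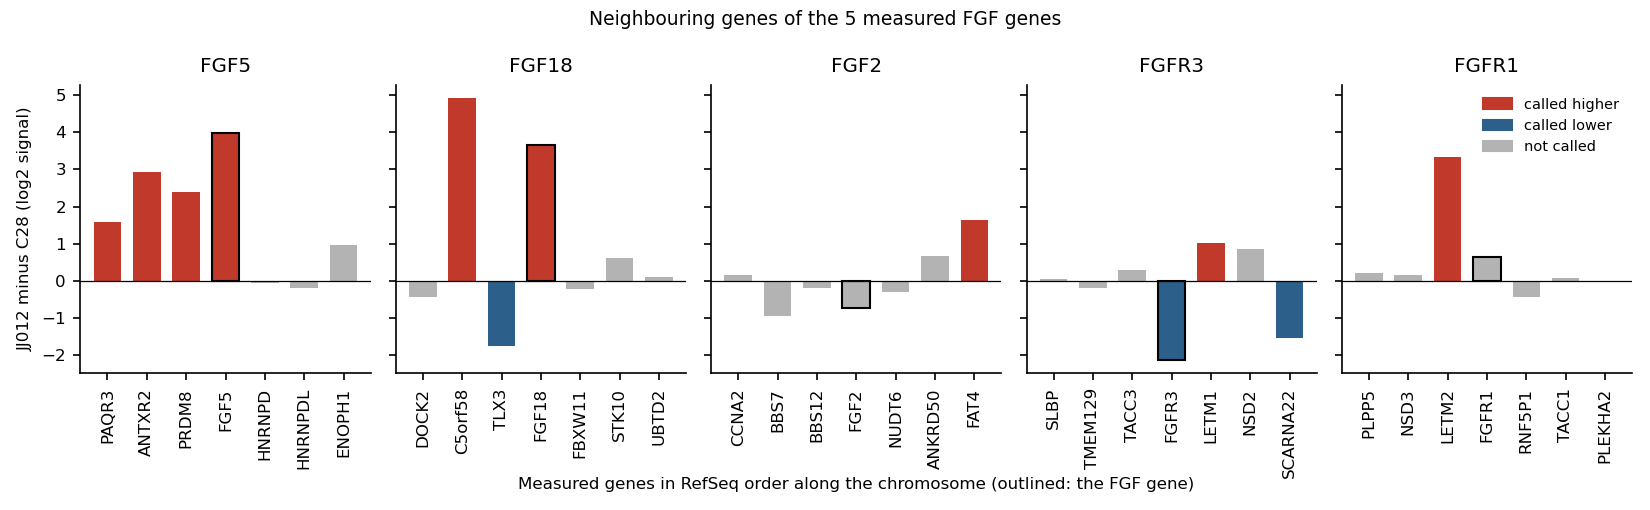
Fitted difference in normalized log2 signal, JJ012 minus C28 (vertical axis), of the FGF gene (outlined) and of the 3 nearest measured genes on either side in RefSeq order (horizontal axis), in 1 panel for each of the 5 measured FGF genes. Red bars were called higher, blue bars lower and grey bars not called, and FGF5, FGF18, C5orf58, TLX3 and FAT4 were not detected in 1 of the lines. The 3 genes before FGF5 are all red and the 3 after it are all grey.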

How the data were processed

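Total RNA of 3 JJ012 and 3 C28 samples was labelled with biotin and hybridised to Illumina arrays, per the labels' protocols. The authors deposited linear intensity values for 47231 probes, which by their values were neither background-subtracted nor scaled between arrays. The deposited fraction beside each intensity stands under a detection p-value heading and was read as 1 minus that p, since bright probes are at 1. The authors also deposited log2 values centred per probe on the median of the 6 arrays (array medians −0.003, 0.004 and 0.003 for JJ012 and −0.001, −0.001 and 0 for C28), used as an alternative only. Their log2 scale, centring and direction were found from the intensities, and the method of normalization stays unknown. Median intensities were 84.8, 84.4 and 95.6 on the JJ012 arrays and 101.6, 90.8 and 95.8 on the C28 arrays, and each pair of arrays had between 37 and 159 exactly equal intensities of 47231.

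Intensities were background-corrected with normexp, using negative controls inferred from the detection values, with an offset of 16, then quantile-normalized and put on the log2 scale with limma 3.58.1 in R 4.3.3. Lines were compared with lmFit and eBayes (two-sided) and Benjamini-Hochberg adjustment over all 19384 measured probes, and the fit was tested on simulated data. Of all probes, 30113 had 1 gene symbol in the platform annotation, 8 had several and 17110 had none listed, and 30074 matched the RefSeq gene table of GRCh38.p14. Replicate numbers did not pair the arrays: same-numbered arrays had correlations of −0.04, −0.07 and 0.05 in their deviations from the line means.

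The named genes were all 10 FGF genes, up to 8 called genes in each direction of each list, the uncalled members that lay near a threshold or had a known role, and the 2 genes most alike to each probe. The uncalled genes named, and the neighbouring genes, were picked with their values known. The FGF genes, the lists, the cell type markers and the tests were chosen with earlier results of these data known. Alternatives covered the scaling, background correction, source of values, detection filter, probe choice, array weights, replicate block, each array left out and the C28 signal on JJ012 arrays.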

Additional observations from a re-analysis of the deposited data

How the results depend on the processing

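The 2 FGF5 probes and FGF18 probe ILMN_1693483 stayed called higher under every alternative that measured them, with fitted values of 2.39 to 4.13, 1.05 to 2.31 and 2.13 to 3.83 at the probe itself. The mean of both FGF18 probes gave 1.84. Fitted values of probes not detected in C28 depend on the background correction. FGFR3 probe ILMN_1723123 ran from −2.53 to −1.52 and stayed called, while the mean of both FGFR3 probes (−0.96) was not called, so that 0 FGF genes were then called lower. FGF2 and FGFR1 kept their direction and were never called. FGF18 probe ILMN_1797030, never past the threshold, changed sign with median scaling (−0.117), under array weights (−0.048) and in a fit of JJ012 replicate 2 alone against C28 (−0.112), and ran from −0.088 to 0.123 with 1 array left out. With JJ012 replicate 2 alone, 1 FGF gene was called higher, because FGF18 is then counted by that probe. A lone array is assumed to vary like the others. The cause of the sign changes was not tested.

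When a probe had to be detected on all 6 arrays, 0 FGF probes and 0 FGF genes were called higher, since those 3 probes leave the test. Of the pathway genes 3 were then called higher and 5 lower, and of all probes 1635 higher and 1500 lower. All probes gave 2698 higher and 3088 lower in the settings of the report, 1552 higher and 1786 lower without background correction, and 1730 higher and 1969 lower with the authors' deposited values. Median scaling gave 2147 higher and 3851 lower and moved the median of all genes to −0.23, against which FGFR3 probe ILMN_1723123 differed by −2.36.

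With the replicate block, 3 FGF probes were called higher and 1 lower, the adjusted p of FGFR3 was 0.000266 (limma), and no FGF call changed. Among other counts and named genes, 560 values stayed on their side, 23 moved and 7 lost their call, among them SULF1, HS6ST2 and RUNX2 without background correction. Leaving out JJ012 replicate 1 ended none of the calls of genes lower in JJ012 that are named from the pathway lists. Signal close to background limits the dim probes of FGF18, FGF2, FGFR3 and FGFR1.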
